A study of Mus musculus with 9 samples.

Results

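The miRNAs of the miR-200 family and miR-205 were examined in the adipose tissue of mice fed a high fat diet (HFD). The members were taken by name as all entries of the deposited table that begin with miR-200a, miR-200b, miR-200c, miR-141, miR-429 or miR-205, which gave 12 of 1251 miRNAs, both arms of 6 hairpins. Small RNA was sequenced from interscapular brown adipose tissue (BAT), inguinal subcutaneous adipose tissue (SAT) and epididymal visceral adipose tissue (VAT), the latter pair being the white adipose tissues (WAT). All groups came from male C57BL/6J mice that entered the study at 5 to 6 weeks of age, received 45% of energy from fat for 11 weeks and were fasted for 4 hours before death, so no library from a low fat diet was compared here. Each depot had 3 libraries, named BAT 12, 15 and 20, SAT 14, 19 and 20, and VAT 14, 17 and 20 after the numbers in their labels. The labels do not say whether each library came from 1 mouse, so the p-values below measure the spread between these libraries.

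Adult epithelia carry the miR-200 family, and fat cells, which derive from mesenchyme, are not a usual site of it. Its members repress the transcription factors ZEB1 and ZEB2, which repress the E-cadherin gene and in turn the miR-200 genes, so that the family and the ZEB factors hold each other in check at the border between epithelial and mesenchymal states. miR-205 has another sequence, shares ZEB1 and ZEB2 among its known targets, and is typical of stratified and glandular epithelia such as skin and mammary gland. The inguinal fat pad of mice lies under the skin and holds the mammary glands of females.

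The mature sequences of the 6 arms that were detected are shown because the seed decides which target sites a miRNA can pair with. They are taken from RefSeq (GRCm38.p6) and written 5′ to 3′, with the seed (bases 2 to 8) in capitals.
miR-200b-3p: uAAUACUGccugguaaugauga
miR-200c-3p: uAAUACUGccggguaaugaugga
miR-429-3p: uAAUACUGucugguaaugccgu
miR-200a-3p: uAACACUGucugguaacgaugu
miR-141-3p: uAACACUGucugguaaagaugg
miR-205-5p: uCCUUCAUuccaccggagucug
The first 3 share 1 seed and the next 2 share another, which differs from it at position 4 (C4U from miR-200a-3p to miR-200b-3p, positions counted from the 5′ end). Across the first 22 bases miR-200b-3p and miR-200c-3p differed at 2 positions (U11G and A22G), and miR-200a-3p and miR-141-3p also at 2 (C17A and U22G). miR-205-5p differed from the miR-200 members at 15 to 17 of 22 positions. Of the 1001 table miRNAs that could be matched to a RefSeq mature sequence, none outside the members had any of these 3 seeds.

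The family comes from 2 loci. Mir200b, Mir200a and Mir429 lie within 1846 bases on chromosome 4 (GRCm38, 156053905 to 156055750, minus strand), in introns of the protein-coding gene Ttll10, with Mir429 in an exon of the noncoding transcript Gm13648. Mir200c and Mir141 lie within 477 bases on chromosome 6 (124717914 to 124718390, minus strand), in an intron of the antisense transcript Gm15884. Mir205 lies on chromosome 1 (193507463 to 193507530, minus strand), in an exon of the lincRNA 4631405K08Rik, which RefSeq names Mir205hg. The hairpins of the 2 members that could be tested are printed with both mature arms in capitals, the 5p arm first.
Mir205, chr1:193507463-193507530: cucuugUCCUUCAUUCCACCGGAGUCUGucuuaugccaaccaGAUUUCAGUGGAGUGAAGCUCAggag
Mir200b, chr4:156055681-156055750: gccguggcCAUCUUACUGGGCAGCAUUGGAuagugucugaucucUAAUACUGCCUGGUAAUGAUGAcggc

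The deposited values are on a log2 scale, and their lowest value, 3.32 (log2 of 10), is taken here as not detected. No read counts were used here, so the depth behind a value is unknown. Above the lowest value were 255 to 273 miRNAs in the BAT libraries, 240 to 285 in SAT and 323 to 349 in VAT. The smallest value above the lowest was 4.25 to 4.91 in BAT and 4.13 to 5.20 in SAT, but 3.36 to 3.62 in VAT, so that a miRNA as low as 4 could be listed in VAT and not in BAT or SAT. The depot labels were compared with brown and white fat miRNAs. Of 8 tested brown fat miRNAs 7 were called lower in VAT than in BAT, beside 26.8% of all tested miRNAs, and 6 were called lower in SAT, beside 18.1%. Of 4 white fat miRNAs 3 were called higher in VAT than in BAT, beside 39.4% of all tested miRNAs, and 4 were called higher in SAT, beside 22.4%. miR-196a-5p, a white fat miRNA, was at 3.96 in VAT 14 against 9.57 and 9.16 in VAT 17 and VAT 20. Several libraries stood apart in miRNAs of other cell types. miR-133a-3p, a skeletal muscle miRNA, was at 17.20, 18.67 and 17.20 in BAT 15, BAT 20 and VAT 20 and at 9.85 to 12.59 elsewhere. The lymphocyte miRNA miR-150-5p was at 16.72 in SAT 20 and at 12.50 to 14.75 elsewhere.

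The members were detected in WAT libraries and in no BAT library, and most of their signal came from SAT 14. All 6 leading arms (3p for the miR-200 family, 5p for miR-205) were above the lowest value in SAT 14, 5 were in VAT 20, 2 were in VAT 14, and miR-205-5p alone was in SAT 19, SAT 20 and VAT 17. The 6 opposite arms stayed at the lowest value in all 9 libraries. In SAT 14, miR-205-5p was listed 10.98 above miR-205-3p on the log2 scale, and miR-200b-3p 5.33 above miR-200b-5p. Both opposite arms are at the lowest value, and the smallest value SAT 14 listed above it was 4.13. The differences between the arms could therefore be smaller than listed. A miRNA was tested where 3 or more libraries of the 9 listed it above the lowest value, which left 343 miRNAs and 2 members, miR-205-5p and miR-200b-3p. Both members passed this filter through WAT libraries alone, with all BAT libraries at the lowest value. Their p-values against BAT are limited by this selection.

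miR-205-5p had the highest value of the members in every library that held more than 1 of them, except VAT 14. Its log2 values were 14.31, 5.60 and 6.48 in SAT 14, 19 and 20. In VAT 14, 17 and 20 they were 3.63, 5.24 and 10.02, and in the 3 BAT libraries 3.32. All 6 WAT libraries thus lay above all 3 BAT libraries, with 1 library far above the rest in each white depot. SAT 14 ranked miR-205-5p 22nd among its 285 detected miRNAs and VAT 20 ranked it 91st of 332. It ranked 222nd of 240 in SAT 19, 198th of 266 in SAT 20, 237th of 323 in VAT 17 and 315th of 349 in VAT 14, which places it among the lower detected miRNAs there. The SAT 19 rank is shared with tied miRNAs, and only 0.417% of the miRNAs detected in SAT 19 had a lower value. Its SAT 19 value is thus near the bottom of what that library listed. The VAT 14 value is below the smallest detected value of every BAT library, so a level like that of VAT 14 could not have been listed in BAT.

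miR-200b-3p, the most abundant family member in SAT 14, was at 8.65 there and at the lowest value in SAT 19 and SAT 20. VAT 14 and VAT 20 listed it at 3.85 and 6.12, while VAT 17 and all BAT libraries were at the lowest value. Its cluster neighbour miR-429-3p was at 7.04 in SAT 14 and 6.63 in VAT 20, and at the lowest value in the other 7 libraries. The chromosome 4 cluster was therefore seen with all 3 of its miRNAs in the same pair of libraries, since miR-200a-3p, with the other family seed, was at 5.64 in SAT 14 and 3.83 in VAT 20. The chromosome 6 cluster was lower. miR-141-3p was at 4.94 in SAT 14 and 4.02 in VAT 20, and miR-200c-3p was at 5.94 in SAT 14 and at the lowest value in the other 8 libraries. In VAT 20, the values of miR-200a-3p and miR-141-3p were under the smallest detected value of every BAT and SAT library.

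**Figure D1:**
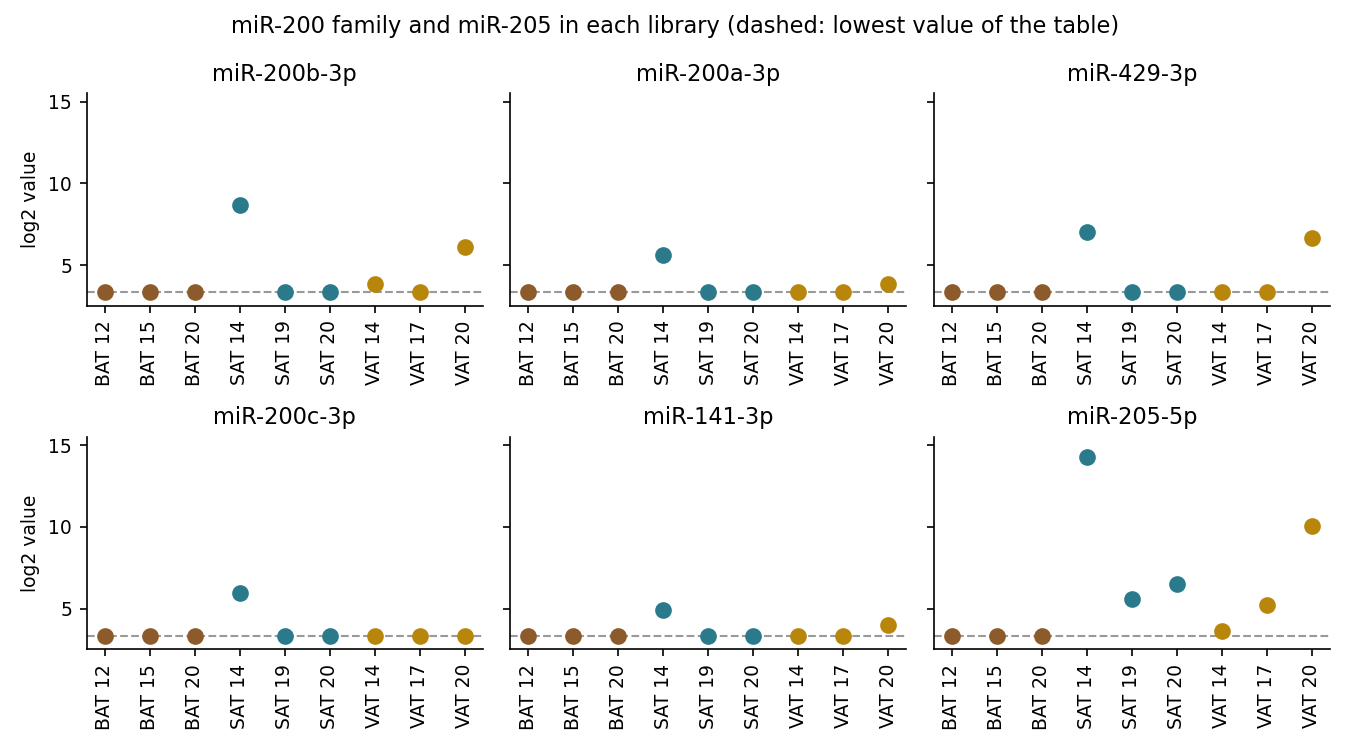
Deposited log2 value (vertical axis) of each detected member in the 9 libraries, 1 point per library, brown for BAT, blue for SAT and yellow for VAT, with the lowest value of the table (3.32) dashed. SAT 14 is the highest library in all 6 panels, VAT 20 is second in 5 of them, and the BAT points lie on the dashed line.

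The order of the members was not the same in the 2 libraries that held most of them. In SAT 14 it ran miR-205-5p, miR-200b-3p, miR-429-3p, miR-200c-3p, miR-200a-3p and miR-141-3p. In VAT 20 miR-429-3p stood above miR-200b-3p and miR-141-3p above miR-200a-3p. The log2 difference between SAT 14 and VAT 20 was 4.28 for miR-205-5p, 2.62 for miR-200c-3p, 2.53 for miR-200b-3p, 1.81 for miR-200a-3p, 0.92 for miR-141-3p and 0.42 for miR-429-3p. These are single libraries, so their differences have no replicate check.

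Unlogged values above the lowest were summed to set the loci against each other. The sum over all members was 20867 in SAT 14, 38.4 in SAT 19 and 79.4 in SAT 20. It was 6.83, 27.9 and 1188 in VAT 14, 17 and 20, and 0 in each BAT library. The depot means were 6995 ± 12014 for SAT (SD, n = 3 libraries) and 408 ± 676 for VAT (SD, n = 3 libraries), with SDs larger than the means. Without SAT 14 the SAT mean was 58.9, and without VAT 20 the VAT mean was 17.3. The members made up 0.868% of the library's summed value in SAT 14 and 0.0494% in VAT 20. The library sums were nearly equal, and the libraries had nearly the same value at a given rank. The shares and ratios here therefore describe the deposited values and are not shares of reads. miR-205 alone gave 97.0% of the members' sum in SAT 14, 86.6% in VAT 20 and 35.4% in VAT 14. Within the miR-200 family, the chromosome 4 cluster held 88.5% of the sum in SAT 14 and 96.1% in VAT 20. The shares by seed were alike, with 90.4% and 93.5% from the seed of miR-200b-3p, miR-200c-3p and miR-429-3p. From VAT 20 to SAT 14 the sum was 19.7 times higher for miR-205, 11.7 times for the chromosome 6 cluster and 3.63 times for the chromosome 4 cluster. The sum for the chromosome 6 cluster in VAT 20 rested on miR-141-3p alone.

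**Figure D2:**
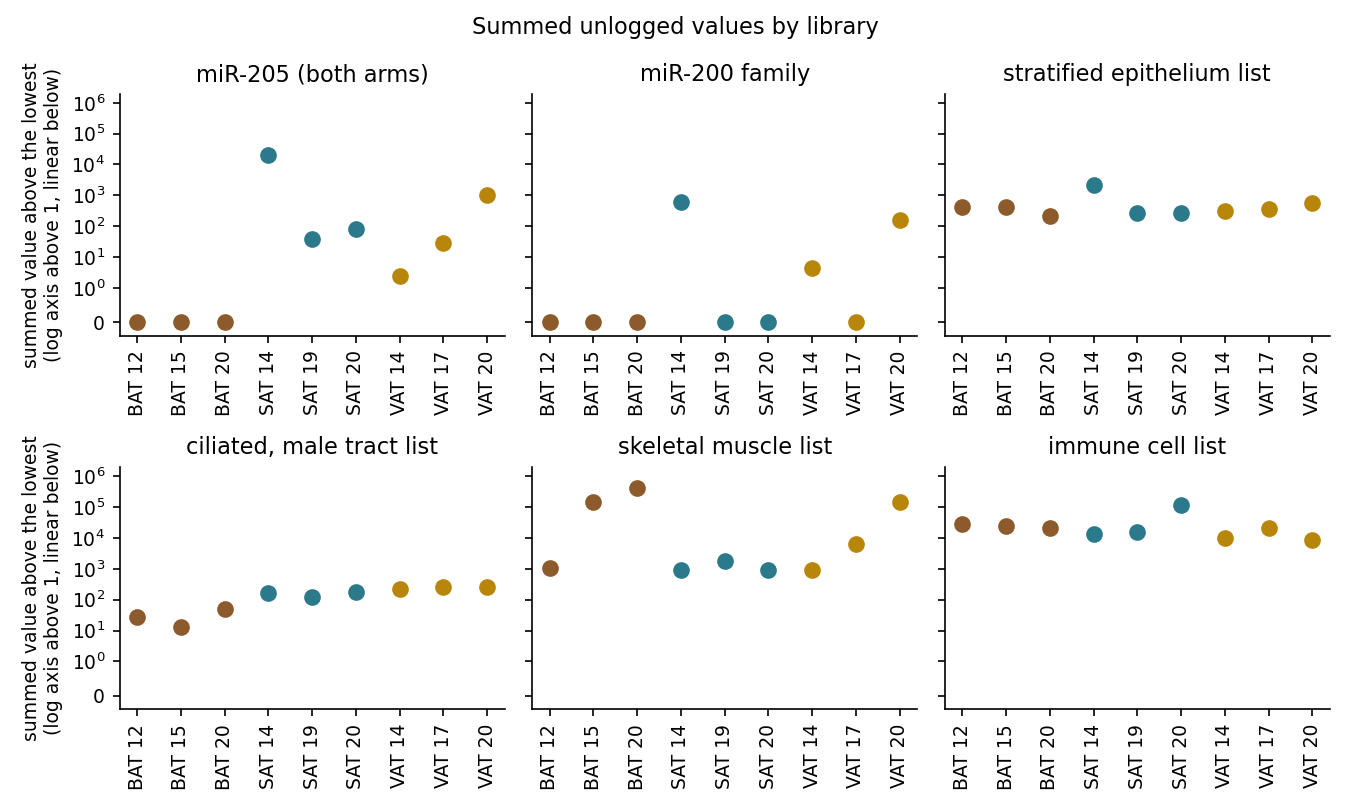
Summed unlogged value above the lowest value of the table (vertical axis, logarithmic above 1 and linear below) in each of the 9 libraries for miR-205, the miR-200 family and 4 lists of marker miRNAs, brown for BAT, blue for SAT and yellow for VAT. SAT 14 is highest for miR-205, the miR-200 family and the stratified epithelium list, whereas the muscle list is highest in BAT 20 and the immune list in SAT 20.

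The pairwise comparisons asked whether the members differed between depots. None of them was called in any comparison at an adjusted p under 0.05 (limma, Benjamini-Hochberg over the 343 tested miRNAs), and none had an unadjusted p under 0.05. A test without moderation also called 0 members. In the VAT/BAT comparison 66.2% of the tested miRNAs were called, and 0 of the 2 tested members were. miR-205-5p averaged 6.30 ± 3.32 in VAT (SD, n = 3) against 3.32 in BAT, a log2 difference of 2.98 (SE 1.55, adjusted p = 0.134, limma). miR-200b-3p averaged 4.43 ± 1.49 in VAT (SD, n = 3), a difference of 1.11 (SE 0.72, adjusted p = 0.204, limma). All VAT libraries were above all BAT libraries for miR-205-5p, as for 44.3% of the tested miRNAs, and the groups overlapped for miR-200b-3p. The difference of miR-205-5p was 1.12 without VAT 20.

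In the SAT/BAT comparison 40.5% of the tested miRNAs were called, and again neither tested member was. miR-205-5p averaged 8.80 ± 4.79 in SAT (SD, n = 3), 5.47 above BAT on the log2 scale (SE 2.53, adjusted p = 0.150, limma), and its groups did not overlap, as for 31.5% of the tested miRNAs with SAT higher. SAT 14 decided this call. Without it the difference was smaller, 2.72, but so was the SE, 0.30, and miR-205-5p was called (adjusted p = 0.00923, limma). That call set 2 SAT libraries against BAT libraries that all hold the lowest value, with no spread. In SAT 19, only 0.417% of the detected miRNAs were lower than miR-205-5p. The member had also passed the filter through WAT libraries alone. With SAT 14 left out and values under 5.20 (the highest detection limit of the 9 libraries) set to 5.20, the difference was 0.84 (SE 0.31, adjusted p = 0.138, limma) and the call was lost. miR-200b-3p averaged 5.10 ± 3.08 in SAT (SD, n = 3), 1.78 above BAT (SE 1.63, adjusted p = 0.420, limma), and without SAT 14 the difference was 0.

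The VAT/SAT comparison called 16.0% of the tested miRNAs and neither member. miR-205-5p was lower in VAT by a log2 difference of -2.50 (SE 3.02, adjusted p = 0.609, limma) and miR-200b-3p by -0.67 (SE 1.77, adjusted p = 0.839, limma). Both differences turned positive without SAT 14, to 0.26 for miR-205-5p and 1.11 for miR-200b-3p. The order of SAT and VAT was therefore not resolved for either member. All differences against BAT depend on the lowest value set in the authors' processing, because the BAT libraries are at it. For miR-205-5p the VAT/BAT difference was 5.54 with the lowest value subtracted and 1 added before log2, and 1.62 at the common limit of 5.20. The SAT/BAT difference was 8.65 and 3.59 under the same settings, and the VAT/BAT difference of miR-200b-3p was 2.79 and 0.31. None of these passed the test.

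**Figure D3:**
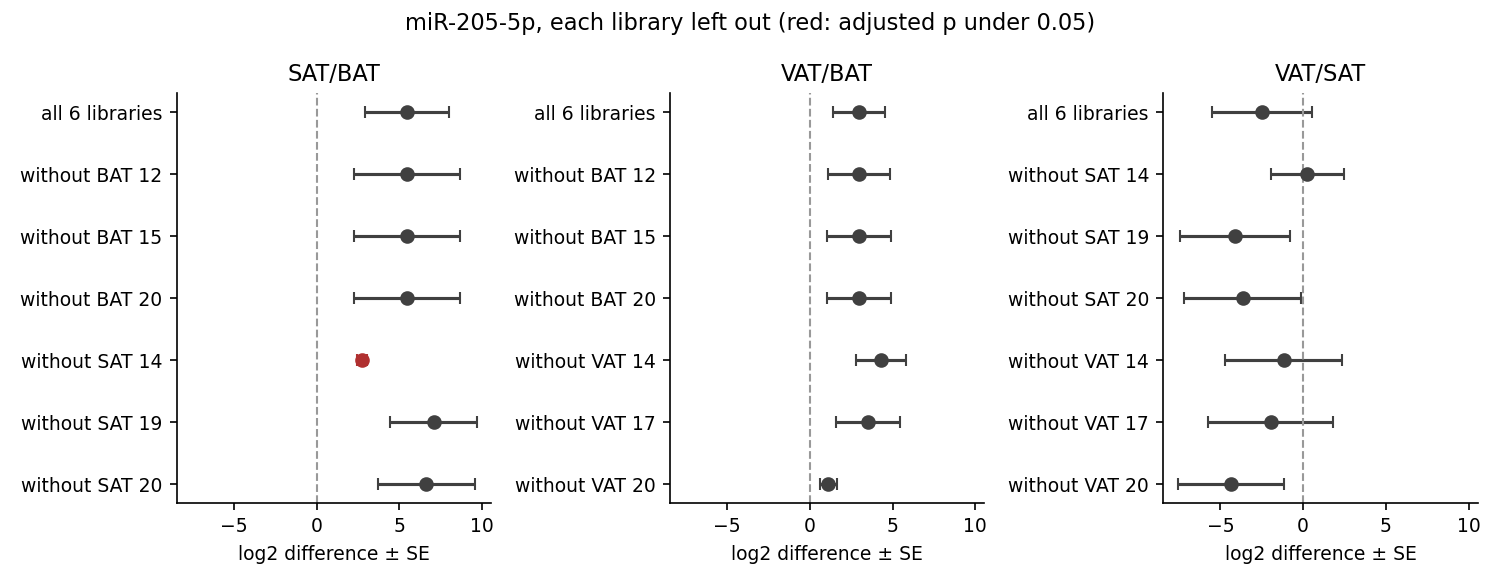
Log2 difference of miR-205-5p (horizontal axis) in the SAT/BAT, VAT/BAT and VAT/SAT comparisons with all 6 libraries and with each library left out in turn, as points with the SE as bars. Leaving out SAT 14 moves SAT/BAT from 5.47 to 2.72 with a shorter bar and the only adjusted p under 0.05 (red), and moves VAT/SAT from -2.50 to 0.26.

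The 6 WAT libraries were also set against the 3 BAT libraries, as a description with no test, since miR-205-5p was looked at for this pattern after its values had been seen and passed the filter through WAT libraries alone. It was 4.23 higher in WAT on the log2 scale, and 28.0% of the tested miRNAs likewise had all 6 WAT libraries above BAT. The difference was 2.87 without SAT 14 and 3.73 without VAT 20. When values under 5.20, the highest of the 9 detection limits, were set to 5.20, the difference was 2.61. miR-205-5p was then above the limit in 5 libraries, by 9.10, 0.39 and 1.28 in SAT 14, 19 and 20 and by 0.04 and 4.82 in VAT 17 and 20, while VAT 14 was level with BAT. miR-205-5p was 1 of 14 miRNAs of 343 that were above the lowest value in all 6 WAT libraries and at it in all BAT libraries. In bulk tissue, fewer cells of a type and less RNA per cell cannot be told apart.

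SAT 14 was compared with the other 8 libraries over the 412 miRNAs detected anywhere. In SAT 14, 12 of them (2.91%) were more than 1 log2 unit above every other library, and 4 of the 12 were members, miR-205-5p, miR-200c-3p, miR-200b-3p and miR-200a-3p. The other 8 were miR-375-3p (2.70 above the next library), miR-203-3p (2.21), miR-183-5p (1.77), miR-147-3p (1.60), miR-1965 (1.23), miR-203-5p (1.23), miR-212-5p (1.20) and miR-329-5p (1.19). miR-200c-3p, miR-1965 and miR-203-5p were detected in SAT 14 alone, so they could be highest only there. miR-1965 and miR-203-5p were at 4.55, under the smallest detected values of BAT 12 (4.57), BAT 20 (4.91) and SAT 19 (5.20). That level could not have been listed in those libraries. miR-203 is a miRNA of keratinocytes, miR-375 one of endocrine and mucosal epithelium, and miR-183 one of sensory and other epithelia. VAT 20 was the next highest library for 7 of the 12, miR-205-5p, miR-375-3p, miR-200b-3p, miR-203-3p, miR-200a-3p, miR-183-5p and miR-147-3p. Each other library had 1 to 29 such miRNAs and none of the members among them.

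**Figure D4:**
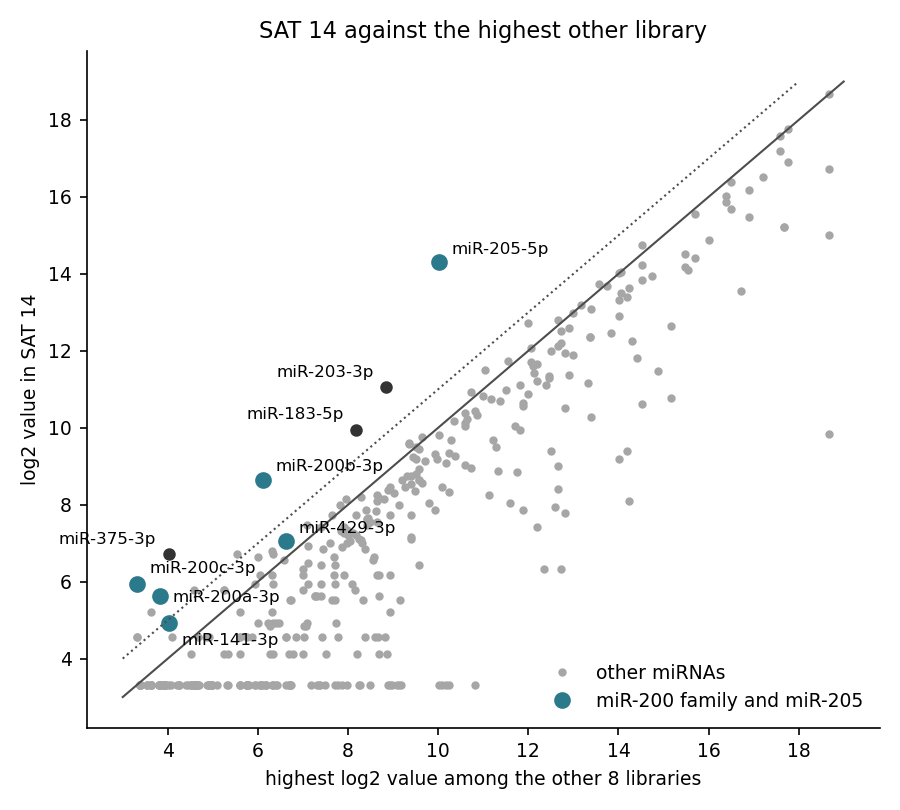
Log2 value in SAT 14 (vertical axis) against the highest log2 value among the other 8 libraries (horizontal axis) for the miRNAs detected anywhere, with equality as a solid line and a difference of 1 log2 unit as a dotted line. miR-205-5p lies 4.28 above equality, and miR-200c-3p, miR-200b-3p and miR-200a-3p lie above the dotted line beside miR-375-3p, miR-203-3p and miR-183-5p, which are named in black.

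Within its own depot the members were also among the miRNAs that set SAT 14 apart. Against the mean of SAT 19 and SAT 20, miR-205-5p was 8.27 higher in SAT 14, the largest difference of the 412 miRNAs, with miR-200b-3p (5.33) ranked 3rd and miR-429-3p (3.72) 4th. All 6 detected members were more than 1 log2 unit higher, as were 41 of 412 (9.95%). The level of miR-141-3p in SAT 14, 4.94, was under the smallest detected value of SAT 19 (5.20) and could not have been listed there. Above 5.20, the highest detection limit of the 9 libraries, were 5 members in SAT 14 and 3 in VAT 20. Against the mean of VAT 14 and VAT 17, VAT 20 was 5.58 higher in miR-205-5p, 3.31 in miR-429-3p and 2.53 in miR-200b-3p, which ranked 3rd, 5th and 7th. Both ranks above miR-205-5p in VAT 20 were muscle miRNAs, miR-133a-3p (5.98) and miR-133b-3p (5.68), and 14 of 412 (3.40%) passed 1 log2 unit there.

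Markers of stratified epithelium and keratinocytes were set beside the members. Of 8 entries of the list 5 were above the lowest value anywhere, and their summed unlogged value was 2155 in SAT 14 against 263 and 265 in SAT 19 and SAT 20. It was 584 in VAT 20 against 317 and 351 in VAT 14 and VAT 17, and 207 to 433 in BAT. miR-203-3p gave most of it, with log2 values of 11.05, 8.09 and 7.57 in SAT 14, 19 and 20, 8.31 to 8.84 in VAT and 7.62 to 8.79 in BAT. Unlike the members, miR-203-3p was thus well above the lowest value in BAT. miR-31-5p, another keratinocyte miRNA, was at 7.02 in VAT 20 and at 3.32 to 4.91 elsewhere. miR-211-5p went against the members, at 6.33 in SAT 20, 4.08 in VAT 17 and the lowest value in the other 7 libraries, SAT 14 and VAT 20 included. Of the 5 detected miRNAs of the list, 2 were highest in SAT 14, miR-203-3p and miR-203-5p. The latter was detected in SAT 14 alone, at 4.55, a level that not every other library could have listed. Of the 3 tested miRNAs of this list, 1 was called higher in VAT than in BAT, beside 39.4% of all tested miRNAs. It was miR-184-3p (0.96, adjusted p = 0.0175, limma), and no other call was made in any comparison. The VAT values of miR-184-3p, 3.96, 4.21 and 4.68, were all under the smallest detected value of BAT 20, 4.91. Those of 3.96 and 4.21 were also under the smallest detected values of BAT 12 (4.57) and BAT 15 (4.25). Such levels could not have been listed in these BAT libraries. The list's median difference was 0.96 in VAT/BAT, 0.42 in SAT/BAT and 0.55 in VAT/SAT, beside 0.40, 0.26 and 0.10 over all tested miRNAs. The part of skin or other epithelium in the values of SAT 14 and VAT 20 was not tested.

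Other epithelial lists did not all follow the members. miR-183-5p was at 9.95 in SAT 14 and at the lowest value in SAT 19 and SAT 20, but at 5.76 to 7.83 in BAT. miR-182-5p of the same cluster was at 11.38 in SAT 14 against 7.75 and 7.86, and was highest in BAT 12 at 12.89. Neither was called in any comparison. Of the 14 entries of the gut, kidney and endocrine list, 4 were detected. miR-375-3p was at 6.72 in SAT 14, 3.92 in VAT 17 and 4.02 in VAT 20 and at the lowest value elsewhere, while miR-192-5p was at 9.80 to 12.50 in BAT and 8.86 to 9.40 in SAT. Of this list miR-194-5p was called lower in both white depots than in BAT. miR-192-5p was called higher in VAT/SAT. Of the 31 entries for ciliated epithelium and the male tract, which adjoins the epididymal pad, 4 were detected. miR-34c-5p was the highest in WAT, at 7.04 to 7.54 in SAT and 7.77 to 7.85 in VAT. It was higher than in BAT by 3.69 in VAT (adjusted p = 0.000433, limma) and by 3.17 in SAT (adjusted p = 0.00401, limma). Its VAT libraries were within 0.1 of each other, unlike those of the members. miR-34b-3p and miR-34c-3p were also called higher in VAT/BAT, but at 3.85 to 4.85 in VAT, under the smallest detected value of BAT 20, 4.91. miR-880-3p went the other way, at 4.57 in BAT 12, 5.94 in BAT 20 and the lowest value in BAT 15 and all WAT libraries.

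The muscle miRNAs of the miR-133 group were high with the members in VAT 20 but not in SAT 14. The summed value of the muscle list was 151531 in VAT 20 and 912 in SAT 14. It was also high in BAT 15 (151681) and BAT 20 (421056), where all members were at the lowest value. miR-133a-3p gave most of these sums. In VAT 20, miR-133b-3p was at 9.76 and miR-133a-5p at 7.28, but miR-1a-3p and miR-206-3p were at 3.83 and 3.63, near the lowest value. The immune list summed to 113250 in SAT 20 and to 13291 and 15658 in SAT 14 and SAT 19. Its highest sum was thus not in the library where the members were highest. miR-150-5p, at 16.72 in SAT 20, gave most of these sums. Against the mean of SAT 19 and SAT 20, 5 of the 8 detected miRNAs of the immune list were lower in SAT 14. miR-223-3p and miR-511-5p were higher there, and miR-511-3p was at the lowest value in all SAT libraries. The parts of muscle and immune cells in the members' values were not tested. Of the 14 mesenchymal miRNAs, which the family is usually set against, 13 were detected in at least 1 library. All 13 were tested, and 11 were called higher in VAT/BAT and 9 in SAT/BAT, beside the 39.4% and 22.4% of all tested miRNAs. Against the mean of SAT 19 and SAT 20, 6 of the 13 were higher in SAT 14 and 7 were lower, with differences from -1.14 (miR-143-5p) to 0.53 (miR-214-5p) and a median of -0.21.

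The tested miRNAs whose pattern over the 9 libraries was most like the mean of miR-205-5p and miR-200b-3p were miR-375-3p (Pearson r = 0.917), miR-203-3p (0.810), miR-212-5p (0.773), miR-184-3p (0.765) and miR-329-5p (0.731). Without SAT 14 these values were 0.732, 0.238, 0.174, 0.737 and 0.313 over 8 libraries. miR-205-5p and miR-200b-3p were each other's closest miRNA (r = 0.940, 9 libraries), and r between pairs of the 6 detected members was 0.710 to 0.993. All these libraries share 1 normalization and many of the values are the shared lowest value, so r is given as a description.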

How the data were processed

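Small RNA libraries of BAT, SAT and VAT (3 each) were analysed from the deposited table. Per the methods, the authors aligned small RNA reads to miRBase precursors, used only those on mature miRNAs, divided reads with more than 1 match proportionally, scaled to total usable reads and added 40 counts. The submitters' processing notes name mm10. The deposited table is on a log2 scale, whereas the methods speak of RPKM. Unlogged, the smallest entry is 10. The 9 libraries have the same highest value, 18.67, and nearly the same value at a given rank, a pattern that quantile normalization produces. The sources used here state neither step. Depth is unknown, so no counting interval is given. Values of near-identical miRNAs are uncertain because shared reads were split.

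Members were found by name, and sequences and loci came from RefSeq (GRCm38.p6) and GENCODE M21 (GRCm38), with identical hairpin coordinates. All 12 members matched a mature sequence. Values above the lowest in at least 3 of 9 libraries qualified 343 miRNAs, while 839 were at the lowest in all 9. Each comparison used limma 3.58.1 in R 4.3.3 on its 6 libraries, two-sided, with Benjamini-Hochberg adjustment over all 343. The unmoderated test that the methods name was an alternative. Medians and sums used numpy 2.4.6. The test was checked on simulated VAT/BAT data, drawn as normal values with the same spread in both groups and no lowest value. That check does not cover members whose BAT values are all at the lowest value. The members, marker lists and tests were chosen with earlier results of these data known. The miRNAs named are the members, detected marker miRNAs, the 5 most like the members and those sharing a seed. miR-147-3p, miR-1965 and the other miRNAs that stood apart in SAT 14 were chosen after their values were seen. Alternatives covered the filter, the offset, scaling, all 9 libraries in one fit, no moderation, replicate blocks and each library left out. A common detection limit, also with SAT 14 left out, and the WAT/BAT difference were added after seeing the data. The mRNA data were not analysed here.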

Additional observations from a re-analysis of the deposited data

How the results depend on the processing

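No member was called in any comparison under any alternative, except that 1 (miR-205-5p) was called in SAT/BAT without SAT 14, and not when a common detection limit was also set. The number called was 0 to 1 in SAT/BAT and 0 to 0 in the other comparisons with a library left out. Over all alternatives the adjusted p of miR-205-5p (limma, Benjamini-Hochberg) ranged from 0.0574 to 0.805 in VAT/BAT, from 0.00923 to 0.726 in SAT/BAT and from 0.465 to 1 in VAT/SAT. Its difference in VAT/SAT turned from -2.50 to 0.26 without SAT 14, and that of miR-200b-3p from -0.67 to 1.11, while over the left-out libraries they ranged from -4.36 to 0.26 and from -1.56 to 1.11. The mean summed value with a library left out ran from 58.9 to 10473 in SAT, from 17.3 to 608 in VAT and from 0 to 0 in BAT. Without subtracting the lowest value the BAT sum was 120, which is 12 members at 10. The 172 tested miRNAs with the higher mean held no member and gave no value for them.

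Over all miRNAs, 227 were called in VAT/BAT, but 128 without the filter and 120 among the 172 with the higher mean. In SAT/BAT 139 were called, and 74 without the filter. In VAT/SAT 55 were called, but 4 without the filter, 30 with all 9 libraries in one fit, 31 without moderation and 0 to 49 with a library left out (0 without SAT 19, 12 without SAT 20, 23 without VAT 14 and 5 without VAT 20). Quantile normalization moved the median difference of all tested miRNAs in VAT/BAT from 0.40 to 0.20, and that of miR-205-5p from 2.98 to 2.92.

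SAT and VAT share the numbers 14 and 20 in their labels, and the labels do not say whether these are mouse numbers. The deviations of same-numbered libraries from their depot means had a Pearson r of -0.05 and -0.14 over 343 miRNAs. With 3 libraries per depot and no differently numbered pairs beside them, these r cannot decide whether the libraries are paired. Pairing is thus unknown, and the main tests did not use it. The same r was 0.27 for BAT 20 with VAT 20 and 0.11 for BAT 20 with SAT 20. With the number as a replicate block in VAT/SAT, 0 members and 55 miRNAs were called and the difference of miR-205-5p was -2.50. With the order in the labels as a replicate block, 0 members were called in each comparison and 0 miRNAs in VAT/SAT, with 105 at an unadjusted p under 0.05. BAT shares only the number 20 with the others, so a block by number could not be fitted there. The unknown depth limits every statement on a miRNA listed at the lowest value.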
